A study of Mus musculus with 3 samples.

Results

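The histone lysine demethylases described here were 10 genes, Kdm1a, Kdm2b, Kdm3a, Kdm4a, Kdm4c, Kdm5a, Kdm5b, Kdm5c, Kdm6a and Kdm6b, chosen by name from 17742 genes that a probe named. All 10 matched a current gene symbol, through 14 probes, and a gene with several probes was read from its brightest probe, by the mean of the 3 arrays. The arrays measured messenger RNA in cultured bone marrow leukaemia cells of the mouse strain BXH-2. The sensitive group held 2 arrays of the line B117P (replicates 1 and 2), and the resistant group held 1 array of B117HS, which was selected from B117P under rising doses of cytarabine (Ara-C) for about 10 weeks and needed about 10 times as much drug for the same inhibition. Cytarabine is a deoxycytidine analogue that blocks DNA synthesis. The labels describe no drug exposure at harvest and do not say whether B117HS was 1 clone or whether the parental arrays hold separate cultures, so the p-values rest on a spread that may be purely technical. In RNA from a whole culture, fewer cells of a type and less RNA per cell cannot be told apart.

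Histone lysine demethylases remove methyl groups from lysines of the histone tails. Kdm1a (LSD1) is a flavin-dependent amine oxidase, and the other 9 are JmjC dioxygenases, which need iron, oxygen and 2-oxoglutarate. The Kdm5 enzymes remove methylation of histone H3 lysine 4 (H3K4), a mark of active promoters, and the Kdm6 enzymes remove methylation of lysine 27 (H3K27), the mark laid down by Polycomb repressive complex 2. In leukaemia Kdm1a is known for holding blasts undifferentiated with the repressor Gfi1, and Kdm6a for recurrent loss. Kdm5 enzymes are known for drug-tolerant states of cancer cells, not of leukaemia in particular.

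Kdm5b stood apart from the other 9 genes, rising from under 50 units on both sensitive arrays to 2248 units on the resistant array. Kdm1a and Kdm6a were the members called lower as deposited, by 4.18-fold and 3.20-fold in intensity. The other 7 differed by less than 1 on the log2 scale and were not called. A gene was called where limma, adjusted over all genes by the Benjamini-Hochberg method, gave a p under 0.05 and the resistant array differed from each sensitive array by at least 1 log2 unit in the same direction, on log2(intensity + 50). By this rule 1 of 10 members was called higher, where 5.23% of all genes were, and 2 of 10 were called lower, where 18.5% of all genes were. With 10 genes these counts are close to those shares. The members' median log2 difference was -0.69, against -0.33 over all genes.

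The resistant array was dimmer than both sensitive arrays, and the difference of each member is therefore given on 2 scales. For other genes a single value is as deposited, and holds this shift, unless another setting is named. The median intensity of the resistant array was 24.9 units against 58.4 and 72.5. Over 6184 bright probes, of at least 500 units in the mean of the arrays, the median log2 shift was -0.74. Scaling each array on these probes left 1 of 10 members called higher, Kdm5b, against 7.28% of all genes, and 0 called lower in limma, against 5.26%. At an unadjusted p under 0.05, 1 member, Kdm1a, was lower by at least 1 log2 unit from each sensitive array after this scaling. By size alone, 1 of 10 members and 1499 of 17742 genes were. The share of all genes at this unadjusted p was not counted. The prior degrees of freedom that limma estimated were 11.0 as deposited and 1.44 after this scaling, and fewer degrees of freedom give larger p-values for the same difference and SE. With only the resistant array scaled, a setting chosen after seeing the data, the prior was 10.5, and 1 member, Kdm5b, was called higher (9.75% of all genes) and 1, Kdm1a, lower (8.87%). The scaled median of the members was -0.12, and that of all genes -0.06.

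**Figure D1:**
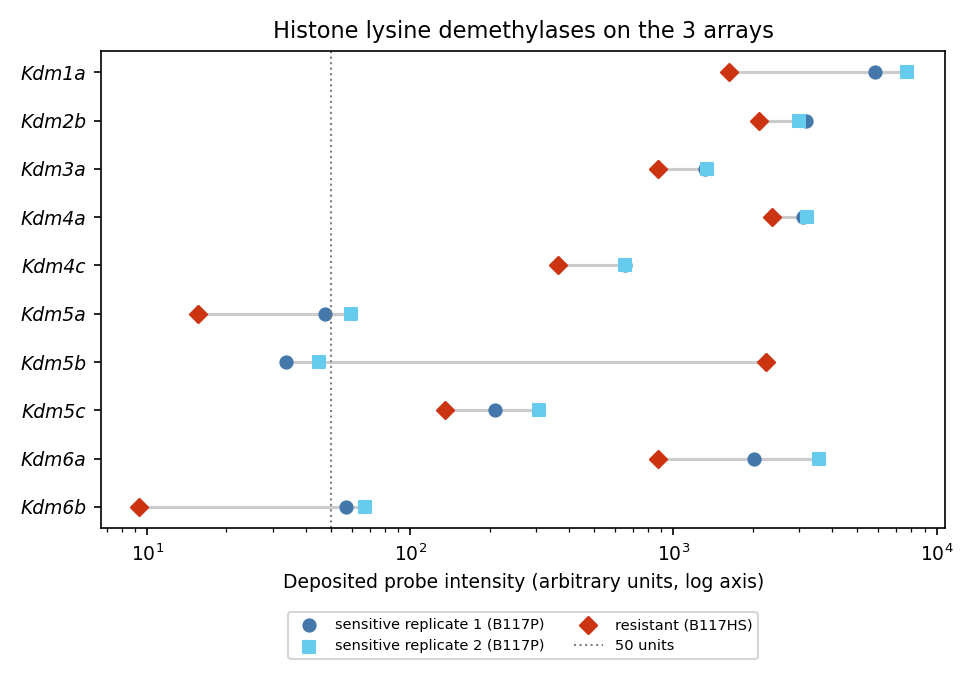
Intensity of the probe used for each of the 10 genes on a log axis, with a circle and a square for sensitive replicates 1 and 2, a diamond for the resistant array, and a dotted line at 50 units. The diamond lies left of both sensitive points for 9 genes and far to the right for Kdm5b, at 2248 units against 33.5 and 44.8.

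The upstream sequences of 3 members are shown, those of the members called as deposited, so that the windows of the gene that rose and of the pair called lower can be compared. They are the 250 bases before the RefSeq gene start in GRCm38.p6, from 5' to 3' on the gene's strand, with capitals for the GC box (GGGCGG on either strand) and the CCAAT box (CCAAT on either strand). Kdm5b lies on the plus strand at chr1:134559928-134560177, Kdm1a on the minus strand at chr4:136602724-136602973, and Kdm6a on the plus strand at chrX:18162325-18162574.
Kdm5b: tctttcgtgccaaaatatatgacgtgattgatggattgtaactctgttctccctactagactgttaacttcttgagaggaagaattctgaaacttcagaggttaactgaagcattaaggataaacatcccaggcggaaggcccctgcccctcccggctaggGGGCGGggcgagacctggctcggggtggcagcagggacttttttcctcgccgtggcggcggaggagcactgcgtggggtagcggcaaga
Kdm1a: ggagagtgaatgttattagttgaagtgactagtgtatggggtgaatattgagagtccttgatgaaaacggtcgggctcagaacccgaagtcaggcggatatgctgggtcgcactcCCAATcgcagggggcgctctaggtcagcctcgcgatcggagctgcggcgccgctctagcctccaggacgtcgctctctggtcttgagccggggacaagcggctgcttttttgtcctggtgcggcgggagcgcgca
Kdm6a: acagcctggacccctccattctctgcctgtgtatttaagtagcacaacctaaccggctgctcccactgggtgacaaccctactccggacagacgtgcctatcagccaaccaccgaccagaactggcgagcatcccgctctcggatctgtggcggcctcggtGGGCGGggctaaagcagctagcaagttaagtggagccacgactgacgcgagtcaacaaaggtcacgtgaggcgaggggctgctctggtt

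The Kdm5b window held 1 GC box and 13 CpG dinucleotides, that of Kdm6a 1 GC box and 15, and that of Kdm1a 1 CCAAT box and 21. All 3 exceeded the median of 6 CpG over 32851 RefSeq windows of this length. A GC box was present in 32.7% of those windows and a CCAAT box in 33.8%. The letters ACGTG, the core of a hypoxia-response element, were found on either strand once in the Kdm5b window and at 3 places in the Kdm6a window, and in 16.6% of all windows. The palindromic E-box CACGTG, which contains ACGTG on both strands, was found once, in the Kdm6a window, and in 6.02% of all windows. The window of Kdm1a held neither, and none of the 3 held the STAT motif TTCNNNGAA, found in 7.02% of all windows. Of the 10 members, 8 had a window in the table used. These letters describe the windows and say nothing about which factors bound them.

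The H3K4 demethylases of the Kdm5 family did not move alike. Kdm5b (JARID1B), which removes di- and trimethylation of H3K4, read 33.5 and 44.8 units in parental cells and 2248 units in resistant cells. Both parental values were under 50 units, and the groups lay far apart. Kdm5b rose by 4.69 on the log2 scale (SE 0.29, limma adjusted p = 1.79e-07). Against the sensitive mean of 39.2 ± 7.99 (SD, n = 2) the ratio of intensities was 57.3, a rough size because both parental values are dim, and against 50 units it was 45.0. After scaling the log2 difference was 5.32 (limma adjusted p = 0.039), and with only the resistant array scaled 5.42. Over all settings the Kdm5b difference ranged from 4.08 to 5.49. Its call was lost with a floor of 50 units in place of the offset, where the difference was 5.49 and the adjusted p was 0.064. Kdm5b had 1 probe, so no second probe could be set beside it.

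Kdm5a (RBP2, JARID1A), the paralogue first found as a retinoblastoma-binding protein, read 47.2 and 59.4 units in sensitive cells and 15.6 in resistant cells. Its resistant value lay below both sensitive values, and all 3 were dim. The log2 difference was -0.65 (SE 0.22, limma adjusted p = 0.026), short of the size asked, and -0.41 after scaling (limma adjusted p = 0.11). With an offset of 16, which weighs dim probes more, the Kdm5a difference was -1.13 and was called lower. Kdm5c (JARID1C), the X-linked paralogue that partly escapes X inactivation, read 210 and 307 units against 135. Its difference of -0.72 (limma adjusted p = 0.073) was not called, and after scaling it was -0.14, with the resistant value between the sensitive ones. Its second probe read 170 and 183 units against 110. The Y-linked Kdm5d was under 50 units on every array.

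Kdm1a had the most negative difference of the 10 genes on log2(intensity + 50), while the plain ratio of intensities was larger for the dim Kdm6b (6.67-fold lower). Kdm1a, which takes mono- and dimethyl groups from H3K4, read 5827 and 7727 units in sensitive cells and 1621 in resistant cells. The resistant value was far below both sensitive values, and all 3 were above 500 units. The log2 difference was -2.02 (SE 0.22, limma adjusted p = 1.80e-05), at percentile 4.76 among all genes. After scaling on bright probes the difference was -1.29, at percentile 6.30. It still passed the size rule against both sensitive arrays (-1.13 and -1.45), but its limma adjusted p was 0.062, so the call was lost. The call held after quantile normalization (-1.54, adjusted p = 0.047), after centring on medians (-1.39) and with only the resistant array scaled (-1.29, adjusted p = 0.00069).

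The H3K27 demethylases, Kdm6a and Kdm6b, lay below both sensitive arrays as deposited, as 68.4% of all genes did. They also did after scaling, as 48.0% did. Kdm6a (UTX), the X-linked H3K27 demethylase that works within the Kmt2c and Kmt2d complexes, read 2023 and 3575 units in sensitive cells and 876 in resistant cells. The groups did not overlap, although the sensitive arrays themselves were 0.81 log2 units apart, the widest gap among the 10 genes. The log2 difference of Kdm6a was -1.57 (SE 0.29, limma adjusted p = 0.00083), or -1.16 from sensitive replicate 1 and -1.97 from replicate 2. After scaling it was -0.85 (limma adjusted p = 0.24), and the call was also lost after quantile normalization and centring. Kdm6a was thus called lower on the deposited scale only.

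Kdm6b (JMJD3), the H3K27 demethylase induced in activated macrophages, read 57.2 and 67.3 units against 9.33. All its values were dim, and the resistant one lay near 0, where a failed spot and a low level cannot be told apart. The log2 difference of -0.92 (limma adjusted p = 0.0046) fell short of the size asked, and it was -0.71 after scaling (adjusted p = 0.056). With an offset of 16 the Kdm6b difference was -1.62 and was called lower, so with that offset 4 members were called lower in all.

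**Figure D2:**
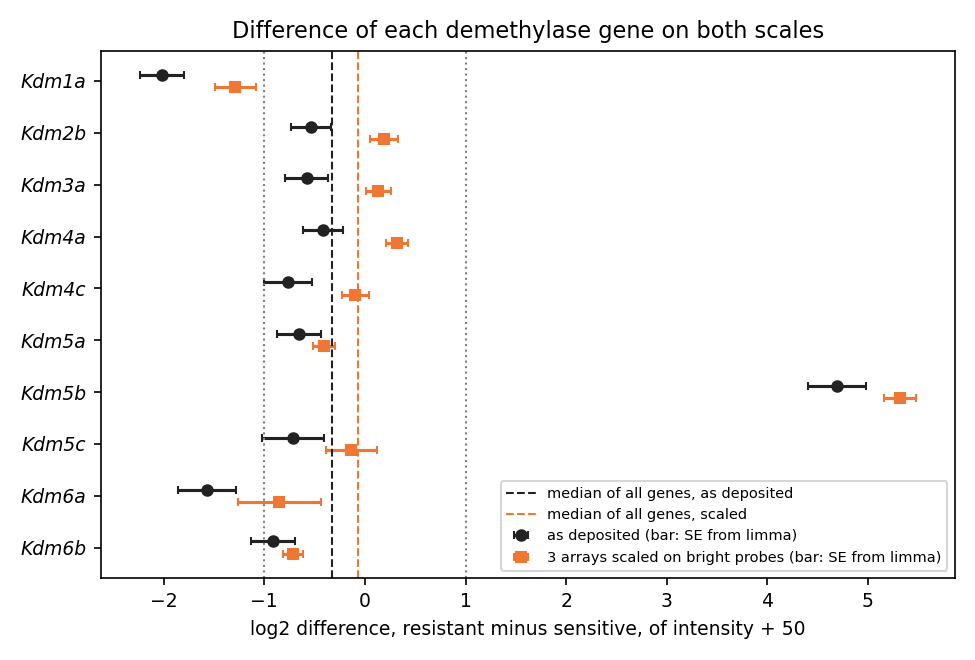
Log2 difference of each of the 10 genes, resistant minus sensitive, as deposited (circles) and with the 3 arrays scaled on bright probes (squares), with bars for the SE from limma, dashed lines for the medians of all genes and dotted lines at -1 and 1. Kdm5b lies at 4.69 and 5.32, Kdm1a lies left of -1 on both scales, and Kdm2b, Kdm3a and Kdm4a lie below 0 as deposited and above 0 after scaling.

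None of the members that act on H3K9 or H3K36 was called. On the probes used, their differences lay between -0.10 and 0.32 after scaling. Kdm3a (JMJD1A), an H3K9 demethylase known as a hypoxia-inducible gene, read 1318 and 1341 units in sensitive cells and 874 in resistant cells. Its log2 difference of -0.58 (limma adjusted p = 0.042) turned to 0.13 after scaling (adjusted p = 0.47). Kdm4c (JMJD2C), which removes trimethylation of H3K9 and H3K36, read 656 and 654 units against 364. The sensitive arrays were nearly equal, and the Kdm4c difference was -0.77 as deposited (limma adjusted p = 0.019) and -0.10 after scaling (adjusted p = 0.63). Kdm4a (JMJD2A), of the same specificity, read 3115 and 3226 units against 2368 on its brightest probe. Its difference of -0.41 (limma adjusted p = 0.11) became 0.32 after scaling (adjusted p = 0.16). Kdm2b (FBXL10), an H3K36 demethylase whose CXXC finger brings a variant Polycomb repressive complex 1 to unmethylated CpG islands, read 3181 and 3009 units against 2114. Its difference was -0.54 as deposited (limma adjusted p = 0.043) and 0.19 after scaling (adjusted p = 0.39). For Kdm2b, Kdm3a and Kdm4a the sign therefore rested on the scale, and a change in either direction was not established.

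As deposited, 9 of 10 members lay below both sensitive arrays, as 68.4% of all genes did, and 1 above, as 20.8% did. After scaling, 5 of 10 lay below both, against 48.0% of all genes, and 4 above, against 39.7%. The median log2 difference between the sensitive arrays, replicate 2 minus replicate 1, was 0.15 for the members and 0.08 for all genes. Between the sensitive arrays 0 of 10 members differed by 1 log2 unit, as 0.857% of all genes did.

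The 3 members with more than 1 probe did not give 1 answer. The second Kdm2b probe read 663 and 840 units against 848, a log2 difference of 0.17 where the brighter probe gave -0.54. After scaling these were 0.88 and 0.19. Of the dimmer Kdm4a probes, one read 135 and 197 units against 193 (0.18), and the other read 176 and 249 units against 87.1 (-0.92). After scaling the dimmer Kdm4a probes gave 0.78 and -0.40, beside 0.32 for the brightest. Both Kdm5c probes were lower on the resistant array as deposited (-0.72 and -0.50), and after scaling they gave -0.14 and 0.05. None of these 7 probes differed by 1 log2 unit from the sensitive mean. Which transcripts each probe covers was not analysed here.

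**Figure D3:**
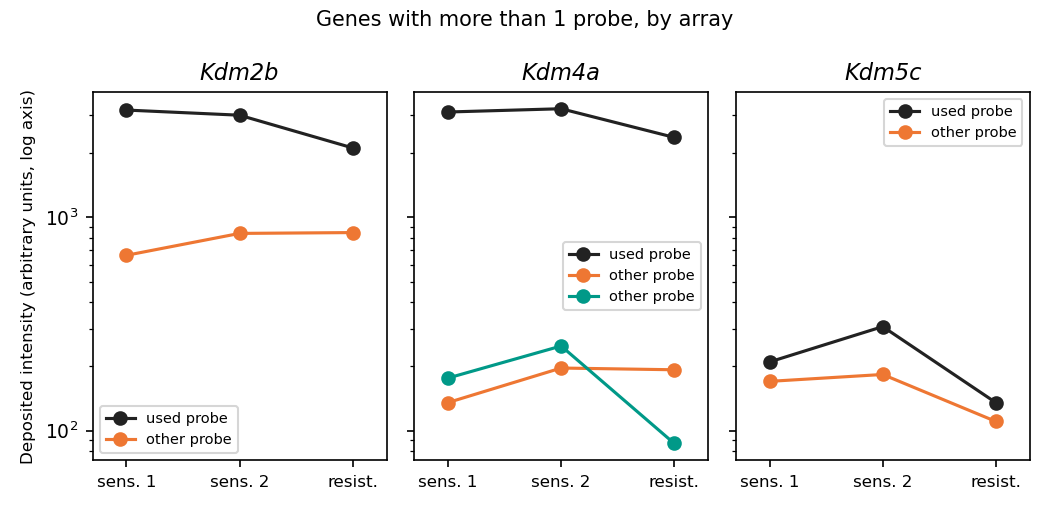
Intensity on a log axis of every probe of Kdm2b, Kdm4a and Kdm5c on sensitive replicate 1, sensitive replicate 2 and the resistant array, with the probe used drawn in black. The brighter Kdm2b probe goes down to 2114 units while its other probe stays at 848, and the dimmer Kdm4a probes part on the resistant array at 193 and 87.1.

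Among the other demethylase and JmjC genes, Kdm2a moved up and Hr moved down. Kdm2a (FBXL11), the paralogue of Kdm2b, read 544 and 605 units in sensitive cells and 1994 in resistant cells. It rose by 1.71 on the log2 scale (SE 0.22, limma adjusted p = 7.02e-05), and by 2.43 after scaling. Hr (hairless), a JmjC corepressor, fell from 6621 and 7970 units to 1699, a log2 difference of -2.06 as deposited and -1.34 after scaling (limma adjusted p = 0.047). Of 17 genes in this list 16 were measured. As deposited 1 was called higher and 5 lower, where 5.23% and 18.5% of all genes were. On both scales, the deposited scale and that set on bright probes, 1 was called each way. Over all genes 4.89% were called higher and 5.25% lower on both. The list's median log2 difference was -0.59 as deposited and -0.11 after scaling, beside -0.33 and -0.06 for all genes.

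Called lower as deposited only were Jmjd1c (-1.53), a Kdm3 relative, Jarid2 (-1.35), a catalytically inactive partner of Polycomb repressive complex 2, Riox2 (-1.16), a ribosomal oxygenase, and Kdm4b (-1.03), the closest relative of Kdm4a and Kdm4c. Kdm1b, the paralogue of Kdm1a, read 221 and 236 units against 176, a difference of -0.30 that became 0.30 after scaling. Phf8 (-0.81), Phf2 (-0.77), Jmjd6 (-0.61) and Kdm8 (-0.57) were not called, and neither was Riox1 (-0.16), whose resistant value of 2125 units lay between its sensitive values. Kdm3b, Kdm4d and Kdm5d read under 50 units on all arrays, and Kdm7a read at most 62.0.

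**Figure D4:**
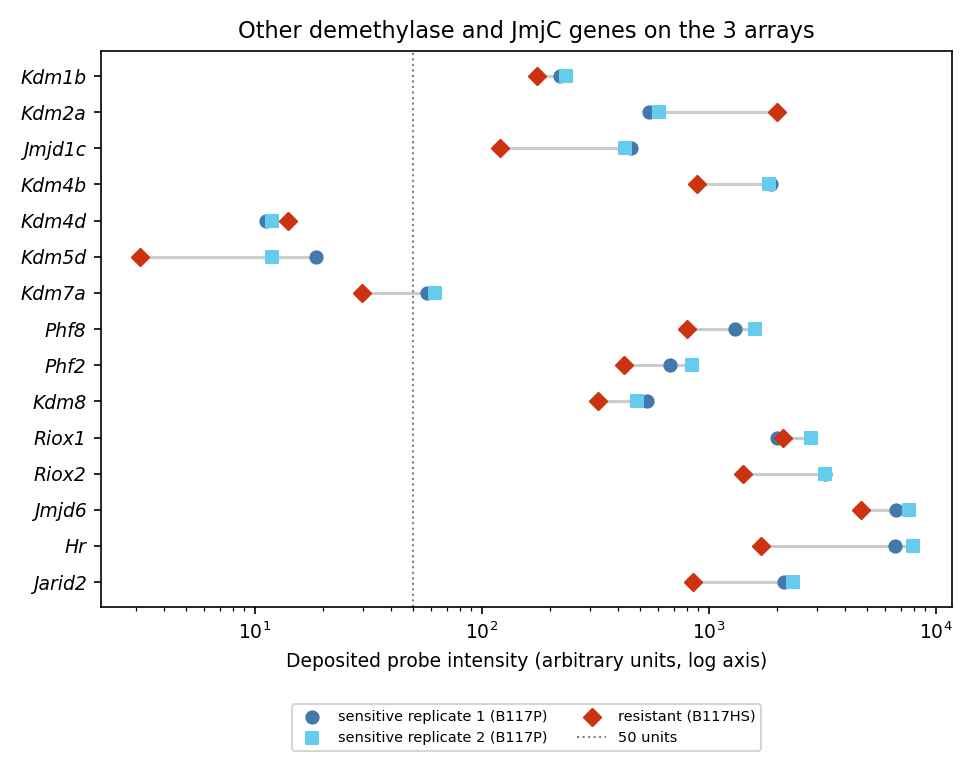
Intensity on a log axis of 15 other demethylase and JmjC genes on the 3 arrays, with symbols as in the plot of the 10 genes and Kdm3b left out because its resistant value of -1.56 has no logarithm. Kdm2a is the gene whose resistant point lies well to the right, at 1994 units against 544 and 605, and the resistant point of Hr lies at 1699 against 6621 and 7970.

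The enzymes that add the marks were also uneven. Among H3K4 methyltransferases and their complexes, Men1, which encodes the menin adaptor of Kmt2a and Kmt2b, rose from 1661 and 1789 units to 10903 (log2 difference 2.63, limma adjusted p = 9.73e-07; 3.36 after scaling). Setd1a (-1.81), Kmt2b (-1.75) and Kmt2c (-1.47), all methyltransferases, were called lower as deposited and not after scaling on bright probes. The call of Setd1a held with only the resistant array scaled (-1.21), after centring (-1.19) and after quantile normalization (-1.22), and that of Kmt2b held after centring (-1.13). Kmt2a (-1.07) was not called. Ash2l, a core subunit shared by these complexes, read 2055 and 2382 units against 4340, a difference of 0.96 that was called higher after scaling (1.69). As deposited, 1 of 13 measured genes in this list was called higher and 3 were called lower, against 1 and 0 on both scales. Over all genes 5.23% were called higher and 18.5% lower as deposited, and 4.89% and 5.25% on both scales. The list's median was -0.58 as deposited and -0.02 after scaling.

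In Polycomb repressive complex 2, which methylates H3K27, 2 of 10 genes were called lower on both scales and 4 as deposited. Of all genes 5.25% and 18.5% were. The median of this list was -0.83 as deposited and -0.21 after scaling. Ezh2, the catalytic subunit, differed by -3.76 and Eed by -2.40. Mtf2 (-1.61) and Ezh1 (-1.497) were called as deposited only, and Suz12 (-0.49) was not called. Among 10 measured H3K9 and H3K36 methyltransferases, as deposited 1 was called higher and 2 were called lower, against 1 and 0 on both scales. The shares of all genes were 5.23% and 18.5% as deposited, and 4.89% and 5.25% on both scales. The median of these methyltransferases was -0.85 as deposited and -0.21 after scaling. Suv39h2, an H3K9 methyltransferase, rose from 90.7 and 95.0 units to 1769 (log2 difference 3.67, limma adjusted p = 7.78e-07; 4.33 after scaling). Prdm2 (-2.31) and the H3K36 methyltransferase gene Setd2 (-1.25) were called lower as deposited and not after scaling on bright probes. The call of Prdm2 held with only the resistant array scaled (-2.05) and after centring (-1.69). Ehmt2, another H3K9 methyltransferase gene, was not called (-1.02). The probe used for Nsd2 differed by -0.85 and its other probe by -2.14.

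The partners of Kdm1a moved in both directions. Gfi1, the repressor that brings Kdm1a to myeloid genes, rose from 241 and 260 units to 834 (log2 difference 1.56, SE 0.26, limma adjusted p = 0.00038), and by 2.24 after scaling. Its paralogue Gfi1b read 747 and 310 units against 14.0 on the resistant array, a difference of -3.06 that was called as deposited, with the sensitive arrays far apart. After scaling on bright probes the Gfi1b difference was -2.76, with a limma adjusted p of 0.10 and no call, and the call held with only the resistant array scaled (-2.87) and after centring (-2.44). Phf21a (BHC80), the CoREST subunit that reads unmethylated H3K4, fell by 1.82 on the log2 scale, with its dim second probe at -0.25. Gse1 was called higher, from -2.48 and 1.32 units, near 0 on both sensitive arrays, to 257. The size of its difference depends on the offset and ranged from 1.84 to 4.16 over the settings. The scaffold gene Rcor1 (0.33) and the deacetylase gene Hdac2 (-0.86) were not called. Of 9 measured genes in this list as deposited 2 were called higher and 3 were called lower, against 2 and 1 on both scales. The shares of all genes were 5.23% and 18.5% as deposited, and 4.89% and 5.25% on both scales. The list's median was -0.66 as deposited and -0.13 after scaling.

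Among 12 measured partners of Kdm2b and of the Kdm5 enzymes, 4 were called lower as deposited and 0 in limma on both scales. Of all genes 18.5% and 5.25% were. The median of the partners was -0.98 as deposited and -0.32 after scaling. The 4 were Skp1 (-1.67), the adaptor that binds the F-box of Kdm2b, Ring1 (-1.34), Emsy (-1.26) and the deubiquitinase gene Usp7 (-1.23), and the second probes of Ring1 (0.31) and Usp7 (-0.13) were not lower by that size. Bcor (-0.68), a corepressor subunit, was not called.

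The balance of higher and lower calls among genes that supply the cofactors of the JmjC enzymes depended on the setting. As deposited 0 of 15 were called higher and 7 lower in limma, where 5.23% and 18.5% of all genes were. Scaling on bright probes gave 1 higher call and 3 lower calls, where 7.28% and 5.26% of all genes were called. Lower calls thus still led in this list, but not over all genes. With only the resistant array scaled, a setting chosen after seeing the data, 3 were called higher and 2 lower. Of all genes 9.75% and 8.87% were. Idh2, the mitochondrial isocitrate dehydrogenase that makes 2-oxoglutarate, fell from 10770 and 11137 units to 2481 (log2 difference -2.12 as deposited and -1.39 after scaling, limma adjusted p = 0.041). Sdhb, a subunit of succinate dehydrogenase, differed by -2.16, and Fth1, the ferritin heavy chain that stores iron, by -1.81, both also called after scaling. With only the resistant array scaled the call of Fth1 was lost. Got1 (-1.57) was called as deposited only. The cytosolic Idh1 read 1818 and 2668 units against 3872, a difference of 0.80 that was not called. It was 1.53 after scaling on bright probes (limma adjusted p = 0.070), and Idh1 was called higher with only the resistant array scaled (1.54) and after centring (1.42). Tfrc, the transferrin receptor that imports iron, read 7586 and 8657 units against 17066, a difference of 1.07 that missed the size rule for 1 sensitive array. After scaling Tfrc was called higher (1.81). On both scales 3 genes of this list were called lower, where 5.25% of all genes were. The list's median was -0.87 as deposited and -0.13 after scaling.

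Of 14 measured genes reported as targets of members in other cells, 12 had a log2 difference below 0 as deposited, as 74.8% of all genes did, and 12 after scaling, as 55.1% did. Cdkn2a, the Ink4a/Arf locus known as a Kdm2b and Kdm6b target, fell from 778 and 1008 units to 26.4 on its brighter probe (log2 difference -3.61 as deposited, -3.22 after scaling) and by a similar size on its other probe (-2.75). Hoxa5 fell from 375 and 361 units to 10.9 (log2 difference -2.78), close to 0 on the resistant array. Cd86, a costimulatory gene known to rise when Kdm1a is inhibited, fell from 389 and 529 units to 38.9 (-2.50), and Itgam, another marker of myeloid maturation, differed by -1.89 and was called as deposited only. Cdkn1a (p21), known as a Kdm5 target, read 914 and 1455 units against 2938, a difference of 1.31 that missed the size rule for sensitive replicate 2. It was 2.04 after scaling on bright probes (limma adjusted p = 0.063), and Cdkn1a was called higher with only the resistant array scaled (2.04) and after centring (1.93). In this list 0 genes were called higher and 8 lower as deposited in limma, where 5.23% and 18.5% of all genes were. With only the resistant array scaled 1 was called higher and 6 lower, where 9.75% and 8.87% of all genes were. On both scales 3 were called lower, beside 5.25% of all genes. The list's median of -1.40 as deposited and -0.98 after scaling stood below the -0.33 and -0.06 of all genes. The list was chosen with earlier results of these data known, so this gap is no test of the reported targets.

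**Figure D5:**
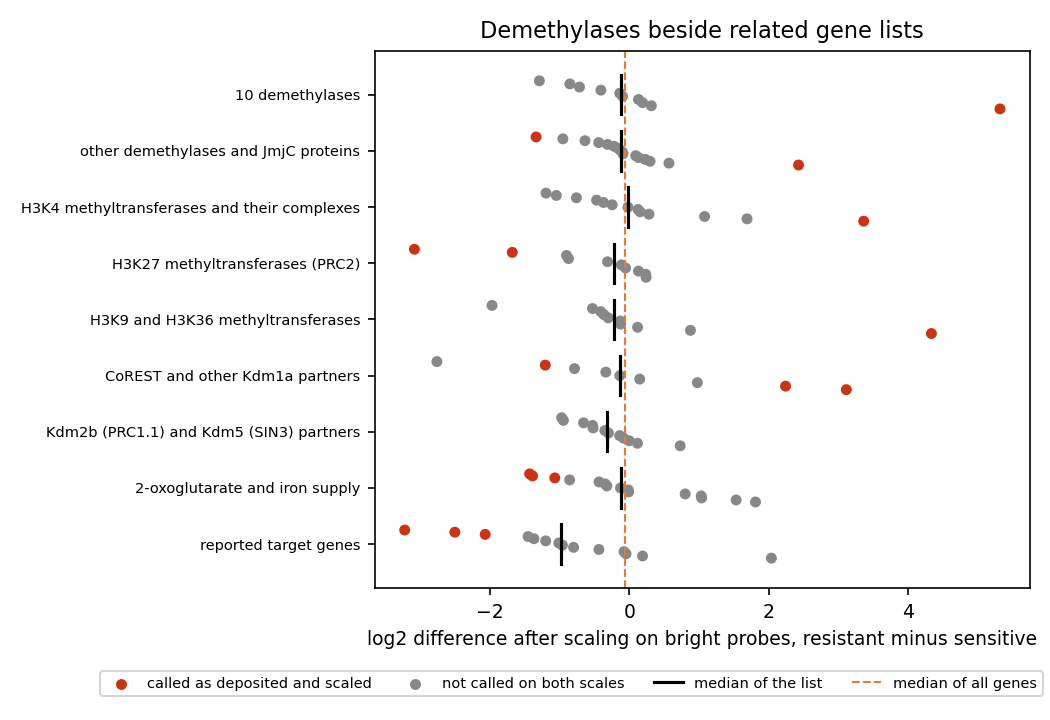
Log2 difference of every measured gene after scaling on bright probes, resistant minus sensitive, for the 10 demethylases and 8 related lists, with a black bar for each list's median, a dashed line for the median of all genes, and red for genes called both as deposited and scaled. The 10 demethylases centre at -0.12 with Kdm5b alone far to the right at 5.32, and the reported target genes centre at -0.98. The lists were chosen with earlier results of these data known.

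Marker genes of blood and stromal cell types were read on the 3 arrays. Mpo, the myeloperoxidase gene of granulocyte precursors, read 76710 and 84138 units in sensitive cells and 80905 in resistant cells. Of 8 measured myeloid markers 3 were called lower as deposited, where 18.5% of all genes were. The summed intensity of the 8 was 106651 and 117575 units in sensitive cells and 110043 in resistant cells, most of it from Mpo and Prtn3. Other markers differed more, with Spi1, a myeloid transcription factor gene, at 634 and 591 units against 109, Csf3r at 277 and 446 against 66.9, and Cebpa at 368 and 582 against 961. The 5 measured B-cell markers summed to 1924 and 2013 units against 151, and 3 of them were called lower as deposited. Cd79b read 970 and 1049 units against 21.8, and Blnk 630 and 629 against -6.22, while Ms4a1 was near 0 on all arrays. T-cell, erythroid, megakaryocyte and stromal markers summed to at most 326 units on any array. The part of these shifts in the demethylase differences was not tested.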

How the data were processed

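Amplified RNA from each culture was coupled to Cy5 and hybridised to a 1-colour array, per the labels' protocols. The authors deposited 1 linear intensity per probe and array for 26423 probes. Some values lie below 0, so a background had been subtracted, and 99.99% were whole multiples of 1 step per array (1.24, 1.32 and 1.56 units, within 0.02 steps). The scanner, software and target of the scaling were not stated in the sources used here.

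Probes were named through the platform's symbols: 20377 had 1 symbol, 6046 none, and 18213 symbols matched a current mouse gene (GRCm38.p6 RefSeq), 2126 an older name and 38 none. limma 3.58.1 in R 4.3.3 (lmFit, eBayes with a trend) was fitted to log2(intensity + 50) of all 17742 genes on 3 arrays, with 1 residual degree of freedom. The offset makes differences of dim genes smaller than their true ratio. The resistant array was assumed to vary like the sensitive ones. Precision is limited by the number of arrays.

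The members, lists, offset and naming rule (all members, every other demethylase, up to 4 called genes per list by size and up to 2 others) were chosen with earlier results of these data known. The design allowed for log2 values; the table held intensities. Other steps used matplotlib 3.10.9, pandas 2.3.3 and numpy 2.4.6 in Python 3.11.15. The limma step was tested on simulated data. Upstream sequences came from RefSeq.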

Additional observations from a re-analysis of the deposited data

How the results depend on the processing

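Kdm5b was higher in all 12 other settings run, with its call lost with a floor of 50 units, and Kdm1a was lower in all 12, with its call lost with that floor and after scaling on bright probes. Leaving out either sensitive array gives a value with no test.

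Members called lower numbered 2 as deposited, 1 after quantile normalization, after centring on medians and with only the resistant array scaled (a setting chosen after seeing the data), 4 with an offset of 16, and 0 in limma after scaling on bright probes and with the floor, where 0 were called higher. At an unadjusted p under 0.05, 1 member was lower by size in each of these, and the share of all genes at that p was not counted. The floor left limma a prior of 0.74 degrees of freedom.

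Over all genes, 928 were called higher and 3284 lower as deposited. The higher calls were 1338 after quantile normalization, 1697 after centring, 1291 after scaling on bright probes and 1729 with only the resistant array scaled. They were 1055 with an offset of 16, 875 with the mean of a gene's probes and 133 with the floor. The lower calls were 1219 after quantile normalization, 1273 after centring, 933 after scaling on bright probes and 1573 with only the resistant array scaled. They were 4799 with an offset of 16, 3053 with the mean of a gene's probes and 26 with the floor. The share of higher calls thus went from 22.0% as deposited to 58.0% after scaling on bright probes.

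The list counts, both directions together, moved as follows. The calls over all genes given above moved in the same settings, so these moves are not particular to the lists. Other demethylases went from 6 to 2 after quantile normalization, centring and either scaling. H3K4 methyltransferases went from 4 to 2 after scaling on bright probes. Polycomb repressive complex 2 went from 4 to 2 after quantile normalization, centring and either scaling. H3K9 and H3K36 methyltransferases went from 3 to 1 after quantile normalization and after scaling on bright probes, to 5 with an offset of 16, and, counted by size alone with no p, to between 3 and 5 without 1 sensitive array (5 without replicate 1). Partners of Kdm1a went from 5 to 3 after quantile normalization and after scaling on bright probes. Partners of Kdm2b and Kdm5 went from 4 to 0 after quantile normalization, centring and either scaling, and to 2 with the mean of a gene's probes. Cofactor genes went from 7 to 4 after quantile normalization and after scaling on bright probes. Reported targets went from 8 to 3 after quantile normalization and after scaling on bright probes, and to 4 after centring. With the floor, 1 gene was called among the partners of Kdm1a and 0 in every other list. Of all 17742 genes, 133 were called higher and 26 lower with the floor.

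The sign turned for genes that were not called. After scaling on bright probes the log2 difference was 0.19 for Kdm2b, 0.13 for Kdm3a, 0.32 for Kdm4a, 0.30 for Kdm1b, 0.093 for Kdm8, 0.57 for Riox1, 0.13 for Jmjd6 and 0.24 for Suz12. With only the resistant array scaled it was 0.19 for Kdm2b, 0.13 for Kdm3a, 0.32 for Kdm4a, 0.31 for Kdm1b, 0.094 for Kdm8, 0.57 for Riox1, 0.13 for Jmjd6 and 0.24 for Suz12. After centring it was 0.083 for Kdm2b, 0.044 for Kdm3a, 0.21 for Kdm4a, 0.32 for Kdm1b, 0.053 for Kdm8, 0.46 for Riox1, 0.016 for Jmjd6, 0.16 for Kdm7a, 0.47 for Kdm3b, 0.33 for Kdm5d and 0.13 for Suz12. After quantile normalization it was 0.020 for Kdm3a, 0.040 for Kdm4a, 0.29 for Kdm1b, 0.041 for Kdm8, 0.33 for Riox1 and 0.18 for Kdm7a. Without 1 sensitive array the difference of Riox1 lay between -0.40 and 0.085, and that of Rcor1 between -0.086 (without replicate 1) and 0.74.

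No paired analysis was possible because the resistant group holds 1 array with no replicate number in the labels.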
